A study of Mus musculus with 2 samples.

Results

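The genes examined here are 10 markers of the cells that form small blood vessels in the brain, and they were taken as a fixed list of names out of 21755 protein-coding genes. Cldn5, Pecam1, Flt1, Tek, Kdr, Cdh5, Slc2a1 and Abcb1a mark endothelial cells, which line the vessel. Pdgfrb and Rgs5 mark mural cells, the pericytes and smooth muscle cells that wrap it. Open chromatin had been mapped by DNase-seq, in which DNase I cuts accessible DNA in isolated nuclei, in tissue of the left cerebral cortex. The donors were males of the strain B6CASTF1/J at an age of 36 days. This strain is the first-generation cross of C57BL/6J and CAST/EiJ, and the parental copies were not told apart. There was 1 group of 2 animals, with no treatment named and 1 library each, called replicate 1 and replicate 2. The labels number them as different males under 1 donor name, so the spread between them may be partly technical. With 1 group there was no test, and values are given per mouse.

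Endothelial cells of brain vessels are joined by tight and adherens junctions and carry transporters that move nutrients in and drugs out, which together make the blood-brain barrier. Their growth and survival depend on receptor tyrosine kinases for vascular endothelial growth factors and angiopoietins, whose ligands come largely from neighbouring cells. Endothelial cells in turn release PDGF-B, which recruits pericytes through the receptor encoded by Pdgfrb. Vascular cells are a minority of cortical cells. In bulk tissue, fewer cells of a type and less accessible chromatin per cell cannot be told apart.

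Signal was counted at each gene body and 10 kb on each side, as peaks of the shorter of the authors' lists for each mouse. A promoter peak is one that comes within 1 kb of an annotated start site. Peak height is the authors' own signal value, read here as DNase cuts scaled to library depth, at a scale that puts 160 M cuts in replicate 1 and 145 M in replicate 2. A height of 0 means that no peak was listed, not that no cut was seen. The tissue label was set beside promoters of other cell types. These lists were chosen with earlier results of these data known, so they give no independent check of the label. For comparison, the share of all coding genes called at the promoter was 63.5% (replicate 1) and 58.4% (replicate 2). At an observed to expected CpG ratio of 0.2 to 0.3 around the gene start, this share was 29.2% and 26.0%. At 0.1 to 0.2 it was 15.7% and 14.2%. Median ratios were 0.212 for the blood list and 0.198 for the meningeal fibroblast list, and the part of CpG content in their counts was not tested. Promoter peaks were found in each mouse at all 7 excitatory neuron genes. In replicates 1 and 2, 5 and 3 of 7 astrocyte genes and 4 and 3 of 10 microglial genes had one, 1 of 5 meningeal fibroblast genes had one in each mouse, and none of 5 blood genes did in either.

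At 4 endothelial genes the sequence is shown of the shared site outside annotated UTR exons with the highest mean height over the mice, since these sites carry most of what follows. All are on the forward strand of GRCm38 (mm10), 5′ to 3′, and capitals mark bases inside a footprint of either mouse. A footprint is a short stretch that the authors called as protected from cutting. The sites are chr5:147584041-147584240 in an intron of Flt1, chr8:104146401-104146600 downstream of Cdh5, chr11:106678081-106678300 in an intron of Pecam1 and chr4:119109041-119109300 in the first intron of Slc2a1.
Flt1 intron: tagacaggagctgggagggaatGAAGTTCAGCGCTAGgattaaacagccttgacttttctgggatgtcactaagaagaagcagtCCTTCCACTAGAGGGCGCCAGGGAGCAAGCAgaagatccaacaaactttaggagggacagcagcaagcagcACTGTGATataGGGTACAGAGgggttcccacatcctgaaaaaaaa
Cdh5 downstream: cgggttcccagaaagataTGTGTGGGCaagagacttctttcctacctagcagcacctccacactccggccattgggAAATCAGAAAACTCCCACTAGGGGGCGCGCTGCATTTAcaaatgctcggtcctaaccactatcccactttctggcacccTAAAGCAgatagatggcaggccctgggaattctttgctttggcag
Pecam1 intron: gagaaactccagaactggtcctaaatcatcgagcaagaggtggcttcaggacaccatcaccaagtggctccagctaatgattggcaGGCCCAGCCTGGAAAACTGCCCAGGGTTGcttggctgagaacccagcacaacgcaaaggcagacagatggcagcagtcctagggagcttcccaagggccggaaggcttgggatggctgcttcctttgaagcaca
Slc2a1 first intron: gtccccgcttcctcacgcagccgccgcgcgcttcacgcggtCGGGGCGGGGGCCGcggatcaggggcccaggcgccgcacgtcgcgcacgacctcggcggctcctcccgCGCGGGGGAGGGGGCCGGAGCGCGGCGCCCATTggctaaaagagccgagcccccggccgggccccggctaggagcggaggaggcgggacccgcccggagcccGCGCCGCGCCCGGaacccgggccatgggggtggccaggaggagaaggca
The Flt1 and Cdh5 sites each held a match to a core of the CTCF motif, which reads CCA, any 2 bases, AG, any 2 bases and GGC, at position 89 and at position 91 counted from the left. CTCF is an insulator protein that anchors chromatin loops. Both matches lay wholly inside a footprint in each mouse. The Pecam1 site held CCGGAAG, a form of the motif of ETS factors, which regulate many endothelial genes, at position 184 and outside the footprints. The Slc2a1 site held GGGCGG, a motif of KLF and SP factors, at position 44 on the forward strand and at position 199 on the reverse strand. Neither of those lay wholly inside a footprint of 1 mouse, although the first fell across adjoining footprints of the 2 mice. Elsewhere a footprint is said to hold a match if it covers at least 50% of the match. A match describes the letters and does not show that a factor was bound.

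In the shorter list, promoter peaks were found at 4 of the 10 vascular genes in replicate 1 and at 2 of 10 in replicate 2 (30% ± 14.1, mean ± SD, n = 2 mice), against 63.5% and 58.4% of all coding genes (61.0% ± 3.62). Slc2a1 and Rgs5 had one in both mice, Kdr and Abcb1a in replicate 1 alone, and Cldn5, Pecam1, Flt1, Tek, Cdh5 and Pdgfrb in neither. In the longer list, promoter peaks numbered 7 of 10 in replicate 1, close to the 67.8% of coding genes, and 3 of 10 in replicate 2, against 64%. In the shorter list again, a promoter peak in neither mouse was the case for 35.7% of coding genes, in both mice for 57.7% and in replicate 1 alone for 5.87%. The windows of the 10 genes together held 28 peaks in replicate 1 and 25 in replicate 2 (26.5 ± 2.12), and most of these lay away from a promoter. Most sites of the genome did so too. Of sites called in both mice, 14 of 18 at these genes lay over 1 kb from any annotated start, against 26521 of 43925 over all. The median per 100 kb of window was 3.11 peaks in replicate 1 and 2.42 in replicate 2 for the vascular genes, against 4.46 and 3.87 for coding genes. Windows of the vascular genes were longer, with a median of 64.3 kb against 37.4 kb. Per gene, the median was 2 peaks in replicate 1 and 1.5 in replicate 2, against 2 in each mouse for coding genes. The part of window length in the values per 100 kb was not tested. Peaks that were listed had ordinary heights, with a median of 1.21 in replicate 1 and 0.977 in replicate 2 at the vascular genes, against 1.18 and 0.963 over all peaks.

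**Figure D1:**
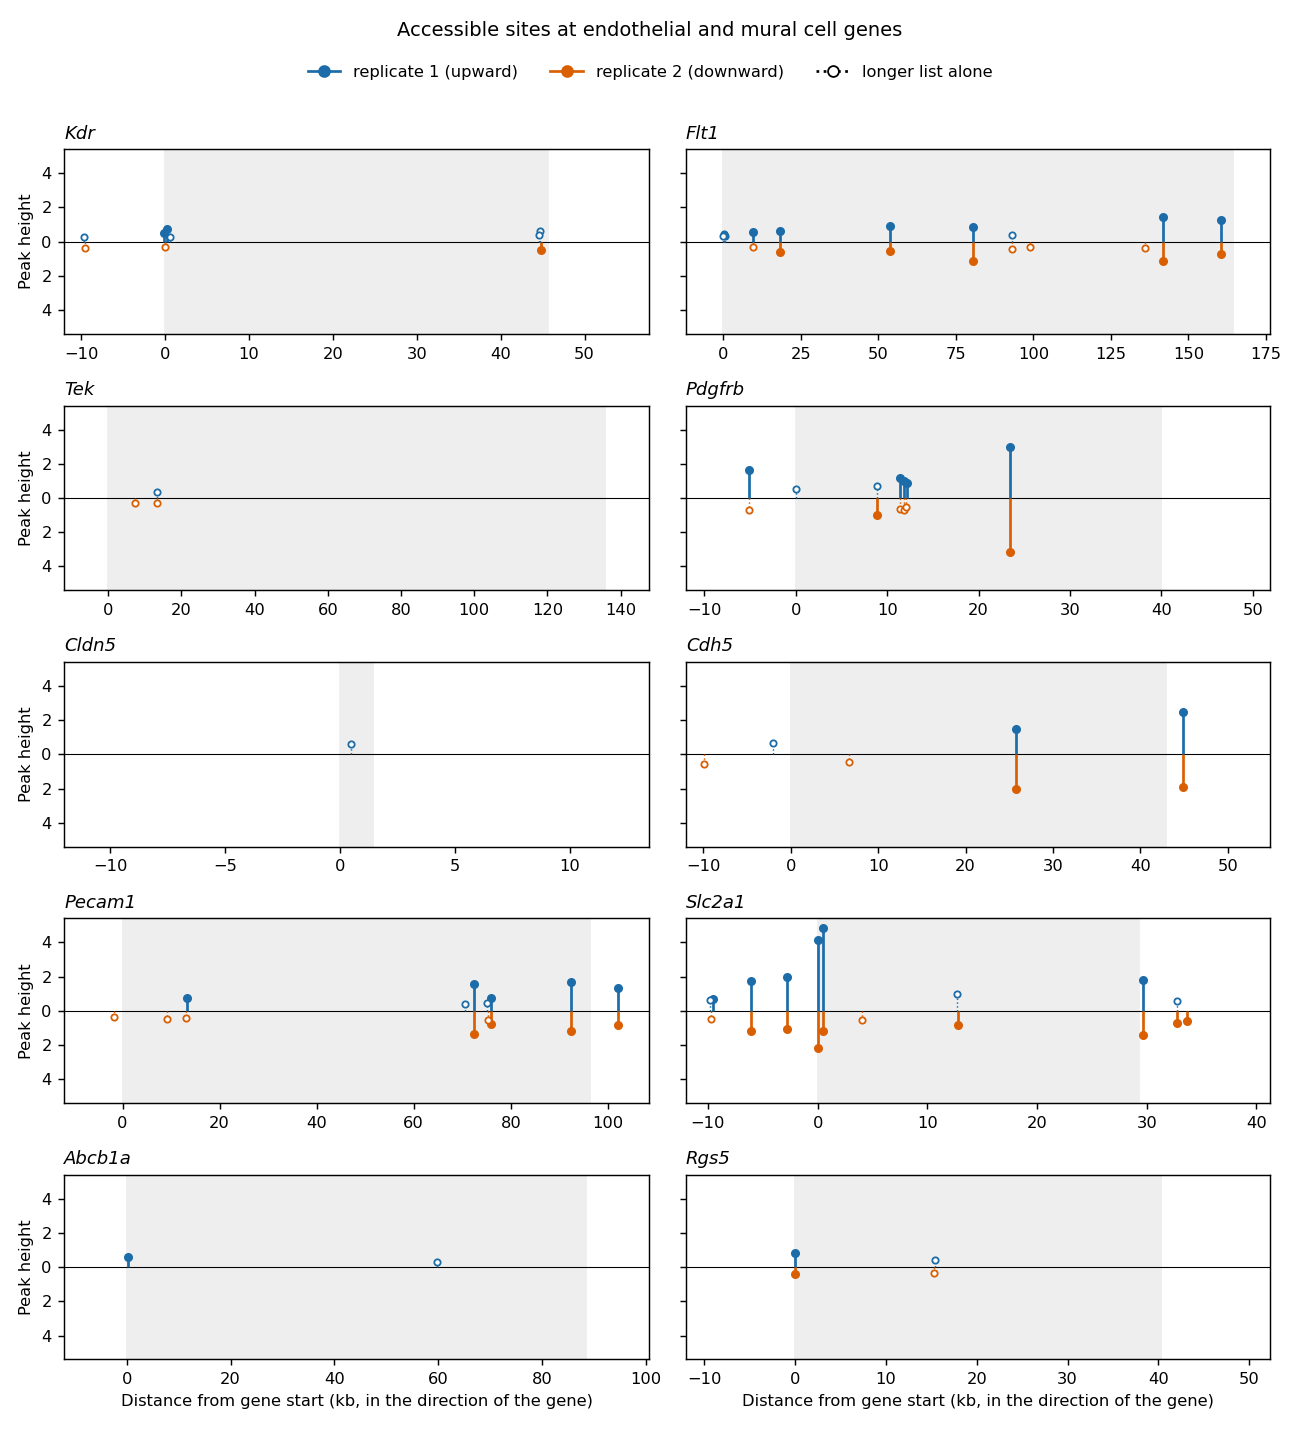
Position of each peak at the 10 vascular genes as distance from the gene start (horizontal axis, kb, in the direction of the gene), with 1 panel per gene and the gene body shaded. Stems give peak height (vertical axis), upward in blue for replicate 1 and downward in orange for replicate 2, and open circles mark peaks found in the longer list alone. Slc2a1 has peaks in both mice at its start, and Tek and Cldn5 have no peak of the shorter list.

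Kdr encodes VEGFR2, the main signalling receptor for VEGF-A on endothelial cells. The gene (ENSMUSG00000062960.10, chr5:75932827-75978458, reverse strand) had promoter peaks in replicate 1 alone. The first, at chr5:75978081-75978420 in the first exon, had a height of 0.725 in replicate 1, which stands for 116 cuts (95% exact Poisson interval 95.9 to 139), and 0 in replicate 2. The second, at chr5:75978512-75978617, lay just before the start and had a height of 0.506 in replicate 1. In replicate 2 the longer list gave only a weak peak of 0.296 there, with a lowest false discovery rate (FDR) of 0.0183. The promoter was thus called in 1 mouse and under the shorter list's threshold in the other. Replicate 2 in turn had a peak in the last exon, at chr5:75933561-75933676 with a height of 0.509, where the longer list of replicate 1 gave 0.631. No site of Kdr was in the shorter lists of both mice, and the nearest shared site lay 107147 bp from its start.

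Flt1 encodes VEGFR1, which binds VEGF-A and placental growth factor and acts in part as a decoy that limits VEGFR2 signalling. The gene (ENSMUSG00000029648.13, chr5:147561604-147726011, reverse strand) had no promoter peak in the shorter list. The longer list gave a promoter height of 0.450 in replicate 1 (lowest FDR 0.00164) and none in replicate 2. Inside the gene, 5 sites were shared by the mice, with heights of 0.606 to 1.47 in replicate 1 and 0.571 to 1.14 in replicate 2. The highest in both was the CTCF site shown above, 141870 bp into the gene, at 1.47 in replicate 1 and 1.14 in replicate 2. Its footprint covered the same 31 bp, chr5:147584125-147584155, in each mouse. The site at chr5:147645341-147645520 overlapped an exon 1376 bp from an annotated internal start, with heights of 0.843 in replicate 1 and 1.11 in replicate 2. A footprint of 20 bp in replicate 1 and 21 bp in replicate 2 lay at its middle. The other shared sites, all intronic, were at chr5:147565541-147565740 (1.24 in replicate 1, 0.736 in replicate 2), chr5:147671901-147672320 (0.912 and 0.571) and chr5:147707588-147707758 (0.606 and 0.592). The called signal of Flt1 was thus spread along the gene in both mice, with none called at its start.

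Tek encodes TIE2, the receptor for angiopoietins, which stabilizes vessels. The gene (ENSMUSG00000006386.15, chr4:94739289-94874976, forward strand) had no peak of the shorter list in either mouse in its window of 156 kb. A window free of peaks in both mice was the case for 20% of all coding genes, but among the 1673 with a window at least as long as that of Tek it was the case for 20, or 1.20%. No base within 1 kb of its start sites was listed at an FDR of 0.05 or less in either mouse. The longer list gave 1 intronic site seen in both mice 13220 bp from the start in replicate 1 and 13094 bp in replicate 2, at chr4:94752641-94752834 with 0.344 in replicate 1 and at chr4:94752543-94752680 with 0.289 in replicate 2. The nearest shared site of the shorter lists lay 124818 bp from the nearest of its annotated starts, the farthest of the 10 genes.

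Ligands of these receptors and genes of barrier signalling, some of them receptors and coreceptors, made up another list. Of its 14 genes, 11 had a promoter peak in replicate 1 and the same 11 had one in replicate 2 (78.6% in each), against 63.5% and 58.4% of coding genes. The median CpG ratio of this list was 0.653, and coding genes at a ratio of 0.6 to 0.7 had 89.6% and 82.3%. The part of CpG content in the count was not tested. Vegfa, the ligand of both VEGF receptors, had a height of 3.34 in replicate 1 and 1.91 in replicate 2, and Pgf, which binds VEGFR1, had 2.59 and 1.35. Angpt1, the activating ligand of TIE2, had 1.36 in replicate 1 and 0.557 in replicate 2, while its context-dependent antagonist Angpt2 had no promoter peak. Pdgfb, the ligand of the PDGF receptor of mural cells, had 4.48 in replicate 1 and 2.70 in replicate 2 (3.59 ± 1.26). Its mean was the highest of this list, although Fzd4 was higher in replicate 2. Fzd4, the Wnt and norrin receptor of barrier endothelium, had 3.57 and 2.95 (3.26 ± 0.439), and Wnt7a and Wnt7b, neural Wnt ligands needed for the barrier, had 2.24 and 2.44 in replicate 1 and 1.82 and 1.36 in replicate 2. Ndp, which encodes norrin, and its coreceptor gene Lrp5 had none in the shorter list. The longer list gave promoter heights of 0.981 for Lrp5 and 0.375 for Ndp in replicate 1 alone, and of 0.427 for Angpt2 in replicate 2 alone. Which cells of the cortex carry these signals was not tested.

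The junction and adhesion genes had no promoter peak in either mouse. Cldn5 encodes claudin-5, the main tight junction protein of the barrier. The gene (ENSMUSG00000041378.2, chr16:18776847-18778262, forward strand), a single short exon, had no peak of the shorter list in its window of 21.4 kb. The longer list of replicate 1 gave a peak at chr16:18777261-18777380, inside the gene and 474 bp past its start, with a height of 0.606 (lowest FDR 0.00558). In replicate 2 there was no peak there, and 12 bases near the start were listed at an FDR of 0.0488.

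Cdh5 encodes VE-cadherin, the adherens junction protein of endothelium. The gene (ENSMUSG00000031871.9, chr8:104101625-104144511, forward strand) had 2 peaks, each in both mice, and no base within 1 kb of a start site was listed at an FDR of 0.05 or less in either. The intronic peak, at chr8:104127261-104127560 and 25786 bp from the gene start, had a height of 1.48 in replicate 1 and 2.04 in replicate 2. It was the site most in favour of replicate 2, with a ratio of 0.724, and 4.71% of all shared sites had a ratio as low or lower. A footprint of 25 bp in replicate 1 and 28 bp in replicate 2 began at the same base, chr8:104127398. The other peak was the CTCF site downstream of the gene, with heights of 2.47 in replicate 1 and 1.91 in replicate 2 and a footprint of 29 bp and 37 bp over the motif. Accessible chromatin at Cdh5 was thus repeatable between the mice but lay away from the start.

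Pecam1 encodes an adhesion protein at endothelial cell contacts that blood cells also carry. The gene (ENSMUSG00000020717.19, chr11:106654217-106750628, reverse strand) had 4 shared sites and no promoter peak. Their heights ran from 0.725 to 1.71 in replicate 1 and from 0.750 to 1.34 in replicate 2. The intronic site at chr11:106658101-106658320 had 1.71 in replicate 1 and 1.18 in replicate 2, with a footprint of 24 bp and 30 bp that began at the same base in both mice. The site with the ETS match shown above had 1.57 in replicate 1 and 1.34 in replicate 2, and its footprint, 29 bp in replicate 2, was split into stretches of 7 bp and 17 bp in replicate 1. The site at chr11:106674693-106674912, had 0.725 in replicate 1 and 0.750 in replicate 2. The site past the end of the gene, at chr11:106648421-106648600, had 1.36 in replicate 1 and 0.819 in replicate 2 and held a CTCF core match in a footprint of 32 bp and 13 bp. In replicate 2 only 10 bases near a start site were listed, at a lowest FDR of 0.0326.

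Of the transporters, Slc2a1 had the most peaks per 100 kb of the 10 genes in each mouse, and Abcb1a had 1 peak in replicate 1 and none in replicate 2. Slc2a1 encodes GLUT1, the glucose transporter of the barrier, which astrocytes and many other cells also carry at lower amounts. The gene (ENSMUSG00000028645.11, chr4:119108711-119137983, forward strand) had 12.2 peaks per 100 kb in replicate 1 and 18.3 in replicate 2. At its start, chr4:119108541-119108880, the height was 4.15 in replicate 1 and 2.15 in replicate 2 (3.15 ± 1.41), or 665 cuts (615 to 718) and 313 cuts (279 to 350). A footprint from chr4:119108718 to base 119108738 in replicate 1 and to base 119108741 in replicate 2 held GGGCGG in both mice. In the first intron, at the site shown above, the height was 4.83 in replicate 1 and 1.20 in replicate 2 (3.01 ± 2.57), or 773 cuts (719 to 829) and 174 cuts (149 to 202). That ratio of 4.03 was beyond counting error and the largest of the shared sites here. Only 5 bases of the intronic site lay in a footprint of both mice, of 60 in a footprint of either.

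The promoter of Slc2a1, taken as its highest promoter peak, averaged 3.49 ± 1.89 and came from the intronic peak in replicate 1 and from the start in replicate 2. Of all coding genes, those without a promoter peak included, 28.5% in replicate 1 and 34.7% in replicate 2 had a higher promoter. The median height over coding genes that had a promoter peak was 4.40 in replicate 1 and 2.65 in replicate 2, so Slc2a1 stood above that median in replicate 1 and below it in replicate 2. Further shared sites lay before the start at chr4:119102395-119102880 (1.72 in replicate 1, 1.18 in replicate 2) and chr4:119105777-119106045 (1.97 and 1.05) and past the end of the gene at chr4:119138301-119138500 (1.80 and 1.44). The last of these lies 400 bp from the start of Gm12868, an annotated antisense RNA gene, so it cannot be assigned to 1 of the 2. The remaining Slc2a1 sites were 1 in replicate 1 alone, at 0.700, and 3 in replicate 2 alone, from 0.599 to 0.812.

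Abcb1a encodes P-glycoprotein, the efflux pump that keeps many drugs out of the brain. The gene (ENSMUSG00000040584.8, chr5:8660077-8748575, forward strand) had 1 peak, at chr5:8660161-8660500 in its first exon, with a height of 0.568 in replicate 1 or 91 cuts (73.3 to 112). In replicate 2 no base in its whole window of 108 kb was listed at an FDR of 0.05 or less. The nearest shared site lay 37106 bp from the nearest of its annotated starts.

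Of the mural genes, Rgs5 had a low promoter peak in both mice and Pdgfrb had intronic peaks. Rgs5 encodes a regulator of G-protein signalling that is typical of pericytes. The gene (ENSMUSG00000026678.10, chr1:169655501-169695813, forward strand) had a single site at its start, chr1:169655331-169655620, with a height of 0.843 in replicate 1 and 0.420 in replicate 2 (0.631 ± 0.299). These stand for 135 cuts (113 to 160) and 61 cuts (46.7 to 78.4), and the value of replicate 2 was the lowest peak of the shorter list at any of the 10 genes. The longer list added an intronic site seen in both mice, 15329 bp from the start in replicate 1 and 15304 bp in replicate 2, at 0.431 and 0.330.

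Pdgfrb encodes the receptor through which PDGF-B recruits pericytes. The gene (ENSMUSG00000024620.11, chr18:61045150-61085061, forward strand) held the highest peak of replicate 2 among the 10 genes, at chr18:61068481-61068700 in an intron 23441 bp from its start. The height there was 2.99 in replicate 1 and 3.15 in replicate 2 (3.07 ± 0.117), or 478 cuts (436 to 523) and 458 cuts (417 to 502), so the difference was within counting error. A CTCF core match lay in a footprint of 43 bp in replicate 1 and 47 bp in replicate 2, the widest at these genes. Another CTCF core match lay before the start, at chr18:61039921-61040100, in a peak of 1.67 in replicate 1 that the longer list gave at 0.688 in replicate 2, and this place is 3812 bp from the start of Cdx1. Replicate 1 alone had 3 adjoining peaks 11408 to 12136 bp from the start, at 1.19, 0.987 and 0.899, where the longer list of replicate 2 gave 0.647, 0.681 and 0.509. Replicate 2 alone had a peak of 0.977 at 8883 bp, where the longer list of replicate 1 gave 0.706. At the promoter itself the longer list gave 0.543 in replicate 1 (lowest FDR 0.0181) and nothing in replicate 2.

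Over all coding genes, the share with a promoter peak rose with CpG content, and the vascular promoters were spread along that scale. CpG content was taken as the ratio of observed to expected CpG in 1 kb around the gene start, with a median of 0.452 for the vascular genes and 0.558 for coding genes. Below a ratio of 0.5, 28.5% of coding genes had a promoter peak in replicate 1 and 25% in replicate 2. At 0.5 or above it was 93.4% and 86.9%. Among the 5 vascular genes below 0.5 (Cdh5 0.244, Pecam1 0.295, Tek 0.318, Rgs5 0.322 and Pdgfrb 0.394), 1 had a promoter peak in each mouse, Rgs5. Among the 5 at or above it (Cldn5 0.509, Abcb1a 0.536, Kdr 0.656, Slc2a1 0.810 and Flt1 0.813), 3 had one in replicate 1 and 1 in replicate 2. Flt1 had the highest ratio of the 10 and no promoter peak, which held for 1.95% of the 4103 coding genes with a ratio at least as high. The part of CpG content in these counts was not tested.

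**Figure D2:**
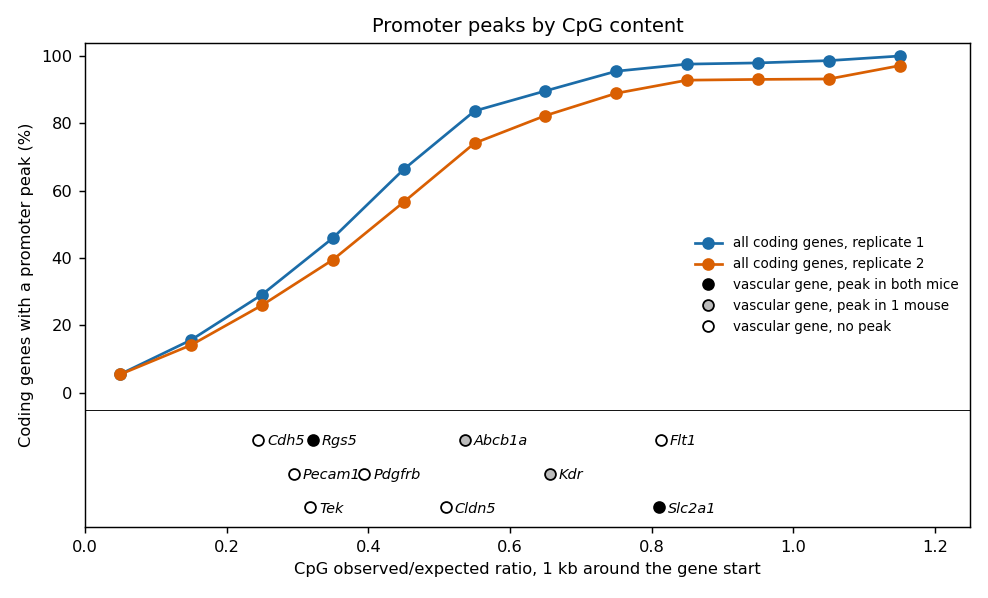
Percent of coding genes with a promoter peak (vertical axis) by CpG observed to expected ratio of 1 kb around the gene start (horizontal axis), as a line for each mouse. The points under the line at the bottom place the 10 vascular genes on the horizontal axis only, in black for a promoter peak in both mice, grey for 1 mouse and white for none. Flt1 has no peak at a ratio of 0.813, where nearly all coding genes have one.

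The distance to the nearest shared site differed between the genes. It was taken from the middle of the site to the nearest annotated start of the gene. The site overlapped the start of Slc2a1 and that of Rgs5, where its middle lay 25 bp away. It lay 1376 bp from a start of Flt1, 5115 bp for Pecam1, 16104 bp for Cdh5, 22184 bp for Cldn5 and 23391 bp for Pdgfrb. Pecam1 has 8 annotated starts, Flt1 5 and Cdh5 2, but Cldn5 and Kdr have 1. From the gene start, the same sites of Flt1, Pecam1 and Cdh5 lay 80580, 92417 and 25786 bp away. The part of the number of starts in these distances was not tested. With Abcb1a, Kdr and Tek beyond these, the median was 19144 bp for the vascular genes, against 177 bp for coding genes. A shared site somewhere in the window was present at 6 of the 10 genes and at 74.2% of coding genes. Of the window, a median of 1.63% in replicate 1 and 0.983% in replicate 2 was listed at an FDR of 0.05 or less, against 3.05% and 2.02% for coding genes. Here too the windows of the vascular genes were the longer ones, and the part of window length was not tested.

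Peaks of the 2 mice merged into 33 sites at these genes. Of the sites, 18 were in both mice, 10 in replicate 1 alone and 5 in replicate 2 alone. The shared part was 54.5% (95% Wilson interval 38.0 to 70.2), against 52.5% of all 83641 sites. Introns held 17 of the 33 sites, exons 6, upstream flanks 5 and downstream flanks 5, and the same split over all genes is not given here. Heights of sites in 1 mouse alone ran from 0.506 to 1.67 in replicate 1 and from 0.509 to 0.977 in replicate 2. At 7 of the 10 from replicate 1 and 4 of the 5 from replicate 2, the longer list had a peak in the other mouse, against 43.9% and 49.8% of all single-mouse sites. For most of these sites the mice therefore differed in passing the threshold of the shorter list, not in having any listed signal.

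Heights at shared sites were mostly greater in replicate 1, as elsewhere in the genome. The median ratio of replicate 1 to replicate 2 was 1.37 at the 18 sites of the vascular genes (range 0.724 to 4.03), against 1.38 at all shared sites. Replicate 1 was higher at 14 of the 18, against 79.5% of all shared sites. The ratio moved with GC content. The median over all shared sites was 0.879 where GC content of 200 bp was under 40%, 1.32 from 50% to 60% and 2.96 at 80% or more. The intronic Slc2a1 site had a GC content of 82.0%. A ratio of 4.03 or more was found at 0.408% of all shared sites, but at 11.5% of the 366 with a GC content of 80% or more. The promoter sites listed in replicate 1 alone were also GC-rich, at 70.5% and 65.5% for Kdr and 64.5% for Abcb1a. The intronic sites of Pdgfrb, with a ratio of 0.948, and Cdh5, with 0.724, each had 47.0%. Sites of like GC content also went the other way, with ratios of 1.66 past the end of Pecam1 and 1.46 upstream of Slc2a1 at 48.0% and 1.60 in an intron of Flt1 at 49.0%, and 2 intronic sites of Pecam1 at 57.0% had 0.966 and 1.17. The part of GC content in these differences between the mice was not tested.

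**Figure D3:**
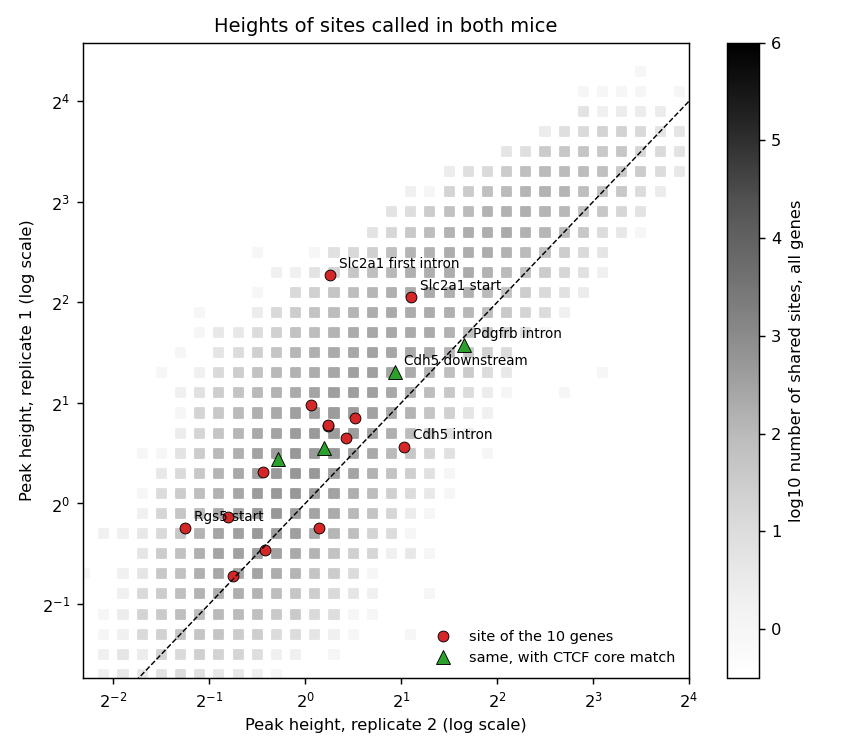
Peak height in replicate 1 (vertical axis, log scale) against replicate 2 (horizontal axis, log scale) at the 18 shared sites of the vascular genes, over grey squares that give the number of all shared sites. Green triangles mark the 4 sites with a CTCF core match, and the dashed line marks equal heights. The intronic Slc2a1 site, at 4.83 and 1.20, lies farthest above the line.

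**Figure D4:**
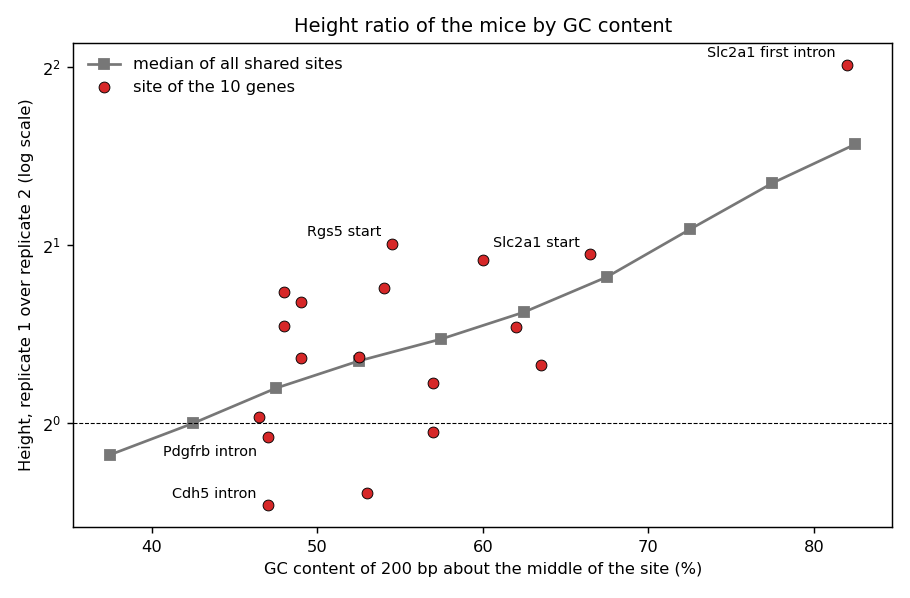
Height of replicate 1 over replicate 2 (vertical axis, log scale) against GC content of 200 bp about the middle of each site (horizontal axis, %). Red points are the 18 shared sites of the vascular genes and grey squares the median of all shared sites in bins of GC content. The grey line climbs with GC content, and the Slc2a1 intron at 82.0% has the highest red point.

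Distal shared sites of the vascular genes, those over 1 kb from any annotated start, were searched for 11 motifs on both strands in 200 bp about their middle. A CTCF core match was present at 4 of 14, at Pecam1, Flt1, Cdh5 and Pdgfrb, against 15.8% of 26521 distal shared sites. CCGGAAG of ETS factors was present at 1 of 14, against 1.51%, and the shorter ETS form AGGAAG at 4 of 14, against 26.0%. ACAATGG, a SOX motif, was present at 1 of 14 (an intron of Flt1), against 1.99%. TGTTTAC of forkhead factors and AGATAAG of GATA factors were found at none, against 1.93% and 1.49%, and the NFI palindrome of TTGGC and GCCAA with 5 bases between was found at none, against 0.0716%. TGANTCA of AP-1 was present at 1 of 14, against 13.0%, GGAATG of TEAD factors at 2, against 12.1%, CAGCTG of E-box factors at 3, against 20.3%, and GGGCGG at 3, against 10.2%. Of the 4 shared sites within 1 kb of a start site, 3 held GGGCGG, all at Slc2a1, against 52.0% of all such sites. The letters of GGGCGG can overlap the end of a CTCF core, so the counts of these motifs are not independent, and the footprint of replicate 1 past the end of Pecam1 held both.

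Footprints inside peaks of the vascular genes numbered 79 in replicate 1 and 51 in replicate 2 (65.0 ± 19.8), or 2.82 and 2.04 per peak, against 2.61 and 2.53 over all peaks. Their median width was 9 bp. At shared sites, 26 of 57 footprints of replicate 1 (45.6%) overlapped one of replicate 2, against 53.8% at all shared sites. Footprints of 20 bp or wider were 12 of 79 in replicate 1 and 11 of 51 in replicate 2, and 5 and 3 of these held a CTCF core match. Over all footprints, not those inside peaks alone, 9.49% and 14.3% were that wide, so the 2 sets are not of the same kind. The share of all wide footprints with a CTCF core match is not given here, so the counts of 5 and 3 have no comparison. Of the 5 wide CTCF footprints of replicate 1, those in the introns of Flt1 and Pdgfrb and downstream of Cdh5 were wide at nearly the same bases in replicate 2. The other two, past the end of Pecam1 and before the start of Pdgfrb, were 32 bp and 31 bp wide in replicate 1 and 13 bp wide in replicate 2.

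Below the threshold of the shorter list, the longer list added 21 weak sites at the vascular genes in each mouse, with heights of 0.269 to 0.999 in replicate 1 and 0.289 to 0.688 in replicate 2. Of those of replicate 1, 12 had no peak of either list in the other mouse, 5 had one in the longer list alone and 4 in the shorter list. For replicate 2 the counts were 9, 5 and 7. The same shares over all weak sites of the genome are not given here, so these counts do not set the vascular genes apart. A base at an FDR of 0.05 or less lay within 1 kb of a start at 7 genes in replicate 1 and 5 in replicate 2, against 68.8% and 65.1% of coding genes.

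Other genes of the same cells are known markers or regulators of endothelium and mural cells. Of 24 other endothelial genes, 13 had a promoter peak in replicate 1 (54.2%) and 7 in replicate 2 (29.2%), 6 of them in both, against 63.5% and 58.4% of coding genes. By the mean over the mice, the highest was Tjp1, a tight junction scaffold that many cell types use, at 5.18 in replicate 1 and 2.11 in replicate 2 (3.64 ± 2.17). Next by the mean were the efflux pump gene Abcg2 at 2.55 and 0.571 (1.56 ± 1.40) and the endothelial secreted factor Egfl7 at 2.04 and 0.757 (1.40 ± 0.905). In replicate 1 alone were Cd34 (1.60), the transcription factor genes Sox18 (0.956), Lef1 (0.712), Erg (0.650) and Sox17 (0.400), and the junction genes Ocln (0.812) and Esam (0.531). The thyroid hormone transporter gene Slco1c1 (0.502) had one in replicate 2 alone. In the other mouse the longer list gave promoter heights of 0.495 for Cd34, 0.420 for Erg, 0.296 for Ocln and 0.325 for Slco1c1. It gave none for Sox18, Lef1, Sox17 and Esam. Of 15 other mural genes, 3 had a promoter peak in replicate 1 (20%) and 2 in replicate 2 (13.3%), against the same shares of coding genes. Median CpG ratios were 0.397 for the other endothelial list and 0.353 for the other mural list. Coding genes at a ratio of 0.3 to 0.4 had a promoter peak in 46.0% (replicate 1) and 39.5% (replicate 2). The part of CpG content in the counts of both lists was not tested. Des, the muscle intermediate filament desmin of pericytes and muscle cells, had 1.49 and 1.40 (1.44 ± 0.0636), Tagln (0.781) and the potassium channel gene Kcnj8 (0.593) had one in replicate 1 alone, and the transcription factor gene Tbx18 (0.585) in replicate 2 alone. In the other mouse the longer list gave promoter heights of 0.654 for Tagln, 0.268 for Kcnj8 and 0.993 for Tbx18, the last above its height in replicate 2. The contractile genes Acta2 and Myh11 and the pericyte genes Notch3 and Cspg4 had no promoter peak of the shorter list.

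**Figure D5:**
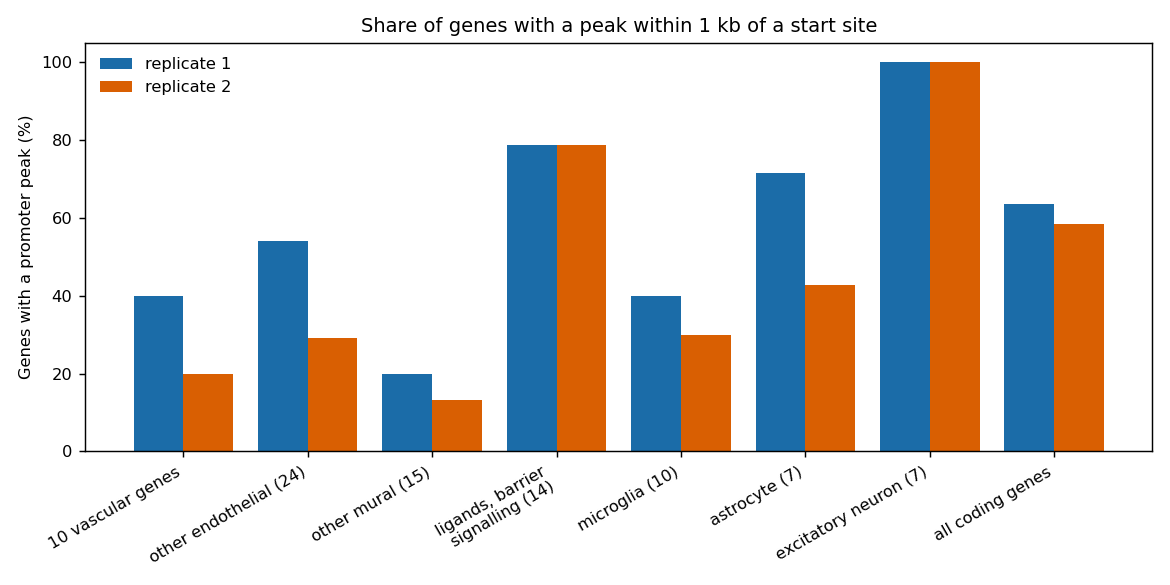
Percent of genes with a peak within 1 kb of a start site (vertical axis) for the 10 vascular genes, other lists of cortical cell types and all coding genes, with a bar for each mouse. The vascular genes stand at 40% and 20%, and the excitatory neuron genes at 100% in both mice.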

How the data were processed

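DNase-seq libraries of left cerebral cortex from 2 mice were analysed from the authors' deposited lists on mm10 (GRCm38), 1 set per library. What aligner, peak caller and cutoffs they used is not given in the sources used here. Each deposited peak carries a signal value, its height, whose normalization is not stated. All heights (100%, to within 0.02 steps) were whole multiples of a smallest step per library. They were read as cuts scaled to depth, and the depths of 160 and 145 M cuts are inferred from the steps. The deposited FDR list gives a q-value (adjusted p-value) per run of bases at 0.05 or less. The deposited footprint score was 0.01 throughout and was not used.

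The shorter of the 2 peak lists, in which every peak overlapped a base at an FDR of 0.001 or less, was the main one (72021 and 59150 peaks). At the median height the counting error was 7.27% and 8.45%. The annotation was GENCODE M21 and the genome sequence GRCm38.p6, with chromosomes 1 to 19 and X, 1-based. Annotated start sites were those of all transcripts of a gene. Peaks of the 2 libraries that overlapped by at least 1 bp were merged into sites, and a site is shared if each mouse has a peak in it. A footprint was counted if it lay wholly inside a peak. Intervals cover counting error only. Python 3.11.15, NumPy 2.4.6, pandas 2.3.3, SciPy 1.17.1, pysam 0.24.0 and matplotlib 3.10.9 were used. The merging of peaks into sites and the counting of overlaps were tested on simulated data, and the other steps were not.

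The genes, lists and motifs were chosen with earlier results of these data known. All 10 genes were named, with every shared site and promoter site. Of each other vascular list the rule named the 3 with the highest mean promoter and those whose promoter was called in 1 mouse alone. Pgf, Angpt1, Angpt2, Wnt7a, Wnt7b, Ndp and Lrp5, and the mural genes without a peak, were named outside that rule with values in view. Alternatives tried were the longer list, peaks in the higher 50% by height, equal peak numbers, other windows, overlaps and FDR thresholds, unscaled cuts, and leaving out each mouse. Read data were not used here.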

Additional observations from a re-analysis of the deposited data

How the results depend on the processing

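Values are means over the mice. Of the alternative values, 9 moved and 34 did not. A count moved if it changed by over 1.5 times, a level if it changed by more than the SD between the mice, and the shared part or the height ratio if it left its 95% interval. Genes with a promoter peak numbered 3, against 5 with the longer list and 1 with the higher 50% of the peaks. Other vascular genes with one numbered 23.5, against 13.5 with the higher 50%. Peaks at the 10 genes numbered 26.5, against 47 with the longer list, 14 with the higher 50% and 66.5 with 50 kb on each side. Their median height was 1.10, against 0.652 with the longer list. Bases at or under the FDR threshold made up 1.44% of the window (median), against 1.07% at 0.01 and 0.777% at 0.001. Those changes follow from lists or thresholds that hold more or fewer peaks and bases, and from a longer window.

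Leaving out a mouse gave 2 to 4 genes with a promoter peak, 20 to 27 other vascular genes, 25 to 28 peaks, median heights of 0.977 to 1.21, 51 to 79 footprints, 21 weak sites either way and 1.18% to 1.69% of bases. It gives no value for shared sites or the height ratio. The shared part ran from 43.2% with reciprocal overlap of 50% to 58.9% with the longer list, and the ratio from 1.29 in the gene body alone to 1.51 without scaling. No paired analysis was possible because both mice belong to 1 group. The depth sets a limit, since a height of 0.420 stands for 61 cuts in replicate 2.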
